A study of Mus musculus with 48 samples.

Results

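The genes described here encode the subunits of the oxidative phosphorylation machinery that are made in the nucleus. They were chosen by symbol alone, as every gene whose name begins with Nduf followed by a, b, c, s or v and a number, is Sdha, Sdhb, Sdhc or Sdhd, or begins with Uqcr, with Cox4 to Cox8 followed by a, b or c, or with Atp5. This rule picked 81 of the 24444 genes in the table, of which 35 were assigned to complex I, 4 to complex II, 8 to complex III, 17 to complex IV and 17 to complex V. Ndufa4 was counted with complex IV, where its protein resides, although it carries a complex I name. Atp5s and Atp5sl match by name but encode proteins related to the enzymes rather than core subunits, and Cox7a2l encodes a factor that helps to join complexes III and IV into supercomplexes. Cox4i1, Cox4i2, Cyc1 and a few other subunit genes have names that the rule does not match, and they are given separately.

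Oxidative phosphorylation produces most of the ATP of a neuron. Complex I takes electrons from NADH and complex II takes them from succinate, complex III passes them to cytochrome c, and complex IV reduces oxygen. Complexes I, III and IV pump protons across the inner mitochondrial membrane, and complex V (ATP synthase) uses the returning protons to make ATP. Complex II is made only of nuclear-encoded subunits and is also an enzyme of the citric acid cycle, whereas the other complexes contain a few subunits encoded by mitochondrial DNA, which were not analysed here.

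RNA was sequenced from the dissected cortex of 48 mice of strain C57BL/6J, with 6 wild-type (WT) mice and 6 heterozygous Chd8 V986*/+ mice (HET) for each of 4 ages, embryonic day 14.5 (E14.5) and 1, 6 and 12 months after birth. The HET mice carry stop codons, introduced by genome editing in all cells, on one copy of Chd8, which encodes a chromatin remodeler, and they descend from a single founder line. The study asked how reduced Chd8 dosage affects cortical gene expression across the life of male mice. Values are variance-stabilized (VST) expression levels on a log2 scale, so that a difference of 1 is close to a doubling at well-expressed genes and understates the change at weakly expressed genes. The most frequent value, 2.14, is called the floor of the scale here, although single values lie below it, down to 1.23.

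Chd8 itself was lower in HET mice at every age. Its VST level ranged from 12.33 to 12.66 in WT and from 11.60 to 12.03 in HET embryos, and the difference was -0.63 ± 0.08 (log2, SE, n = 6 per group, limma adjusted p = 0.026). The groups did not overlap at 1 month (-0.67 ± 0.05, limma adjusted p = 3e-06), 6 months (-0.64 ± 0.04, limma adjusted p = 1.1e-07) or 12 months (-0.54 ± 0.06, limma adjusted p = 0.0026). At 12 months WT replicate 6 had the lowest Chd8 level of its group, 11.36 against a group median of 11.69, and HET replicate 6 had the highest of its group, 11.17 against 11.10. At E14.5 the call was lost under some settings, with adjusted p-values between 2.3e-09 and 1.0 over the alternatives. All 9 cortical marker genes were above the filter on low values in each group.

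Several libraries stood apart in these genes, and the median genotype differences are given with and without them. WT 12-month replicate 6 held the highest value of its group in 76 of the 80 subunit genes above the filter over all samples, with a median of 0.31 (log2) above its group's median. HET E14.5 replicate 1 was the highest of its group in 72 of 80 genes (median 0.28), WT E14.5 replicate 1 in 62 (median 0.17) and HET 1-month replicate 3 in 56 (median 0.14). HET 12-month replicate 6 departed in the other direction and lay below its group's median, with a median deviation of -0.14 and the lowest value in 63 genes. WT 12-month replicate 2 (-0.12, lowest in 50) and HET E14.5 replicate 3 (-0.11, lowest in 58) did so too.

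The deviations were of similar size in each complex in WT 12-month replicate 6 but not in each library. In WT 12-month replicate 6 the median deviation was 0.29 for complex I, 0.29 for complex II, 0.32 for complex III, 0.32 for complex IV and 0.35 for complex V, and it was 0.32 for 79 cytosolic ribosomal protein genes. In HET 1-month replicate 3 it was 0.17, 0.03, 0.11, 0.22 and 0.13 for complexes I to V. Across all genes with a known transcript length, those under 1 kb deviated by a median of 0.13 in WT 12-month replicate 6. Those of 4 kb and over deviated by -0.21 in that library. HET E14.5 replicate 1 showed similar values, at 0.14 and -0.22, and WT E14.5 replicate 1 gave 0.10 and -0.17. The values were 0.02 and -0.03 in HET 1-month replicate 3, and -0.03 and 0.03 in HET 12-month replicate 6. The subunit genes have short transcripts, with a median of 682 bases against 2316 bases over all genes, and 55 of 80 lie under 1 kb. What part transcript length plays in the values of these libraries was not tested.

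**Figure D1:**
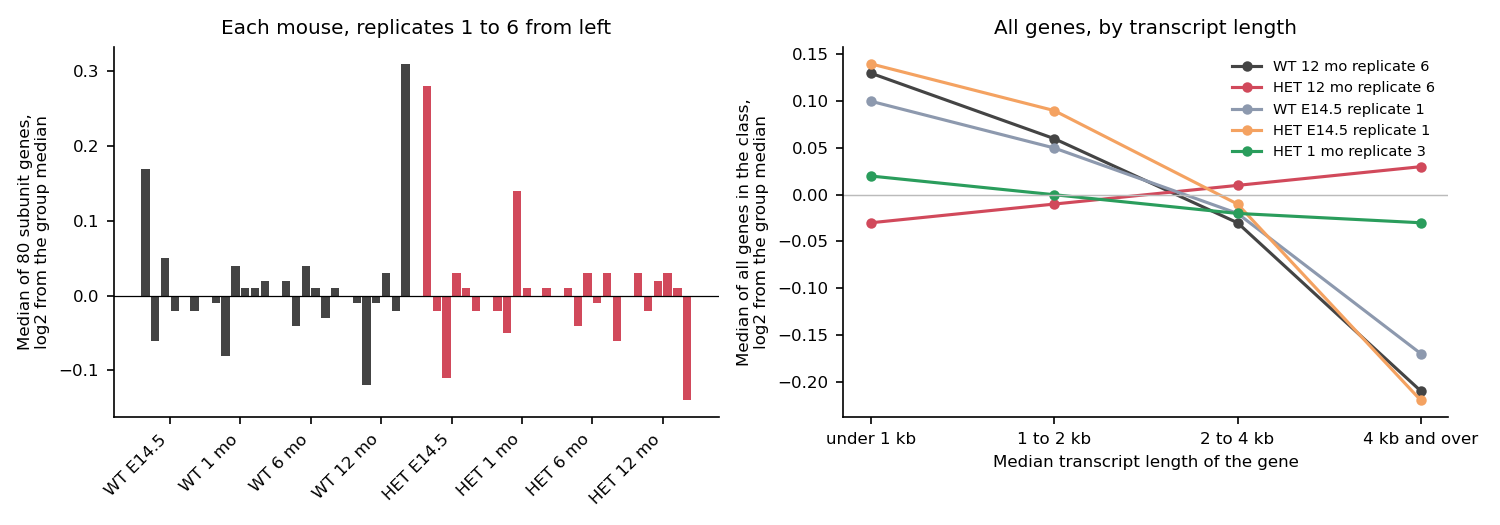
Left, the median over 80 subunit genes of each mouse's deviation from its group's median (log2), with WT in grey and HET in red and replicates 1 to 6 from left to right in each group. Right, for 5 of these mice, the median deviation of all genes in 4 classes of transcript length; WT 12-month replicate 6 runs from 0.13 under 1 kb to -0.21 at 4 kb and over.

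From E14.5 to 1 month, transcripts of most subunits rose. In WT cortex 68 of the 77 subunit genes above the filter in embryos rose and 3 fell, against a background of 85.5% of 17341 genes (limma, adjusted p below 0.1), so the share called was close to the background while the direction was not. Over all genes, 7607 (43.9%) rose and 7224 (41.7%) fell. Unlike the 77, the genes of the backgrounds were filtered on the mean of all samples of the genotype. They therefore include genes admitted by their level at only some ages. The median change of the 77 subunit genes was 0.58 (log2), against 0.03 over all genes. The complex IV genes Cox6a2, Cox7b2 and Cox8b lay below the filter in embryos and were tested only through their postnatal levels, so that they could hardly do other than rise, and they are left out of these counts and medians. With them, 71 of 80 rose and the median was 0.59. In HET cortex 69 of the 77 genes rose and 3 fell, against a background of 86.5% (44.5% rose and 42.1% fell), with a median of 0.58. Over the 80 genes, with Cox6a2, Cox7b2 and Cox8b among them, the WT median was 0.611 without WT E14.5 replicate 1. Without HET E14.5 replicate 1 and HET 1-month replicate 3 the HET median over the 80 genes was 0.613, against 0.606 with all mice. Medians over the 77 genes without these libraries are not given. Cortical cell types change in abundance over this interval. The marker levels ranged from 6.33 to 6.89 in WT embryos and from 13.77 to 14.18 in 1-month WT mice for oligodendrocytes (6 genes), from 8.86 to 9.20 and from 13.36 to 13.53 for astrocytes (6 genes), and from 12.84 to 13.26 and from 14.36 to 14.54 for neurons (6 genes), all as mean VST level, with no marker of these lists below the filter. Of the neuron markers 4 rose, and Tubb3 and Stmn2 fell. Microglial markers (6 genes) lay between 6.86 and 7.13 and between 9.66 and 9.97, and red blood cell markers (7 genes) were lower postnatally, between 9.25 and 10.90 and between 7.74 and 8.53. The part of these cell types in the rise of the subunit genes was not tested. In bulk tissue, fewer cells of a type and less RNA per cell cannot be told apart.

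In WT mice complexes I, III and IV rose by similar amounts, and complexes V and II by less. The median log2 change in WT was 0.60 for complex I (32 of 35 genes rose), 0.56 for complex III (8 of 8), 0.64 for complex IV (11 of the 13 above the filter in embryos), 0.33 for complex V (14 of 17) and 0.20 for complex II (3 of 4). In HET mice the values were 0.63, 0.63, 0.86, 0.36 and 0.23 in the same order. The higher HET value for complex IV was not seen in the values per mouse, given below. With Cox6a2, Cox7b2 and Cox8b the complex IV median was 0.92 in WT and 0.96 in HET mice, so its distance from complexes I and III in WT mice depended on genes that the filter admitted through their postnatal levels. Each mouse was also given the median over a complex's genes of the level minus the mean of WT embryos. In the 6 WT mice at 1 month this lay between 0.53 and 0.64 for complex I, between 0.51 and 0.62 for complex III and between 0.53 and 0.96 for complex IV. Complex V lay between 0.32 and 0.40 and complex II between 0.11 and 0.26. Thus complexes I, III and IV overlapped, complex V lay below them, and complex II was the lowest. The same held in HET mice at 1 month for complexes I (0.57 to 0.74), III (0.56 to 0.75) and IV (0.60 to 1.21) against complexes V (0.32 to 0.54) and II (0.19 to 0.29). For complex IV the group median of these values was 0.70 in WT and 0.71 in HET mice.

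**Figure D2:**
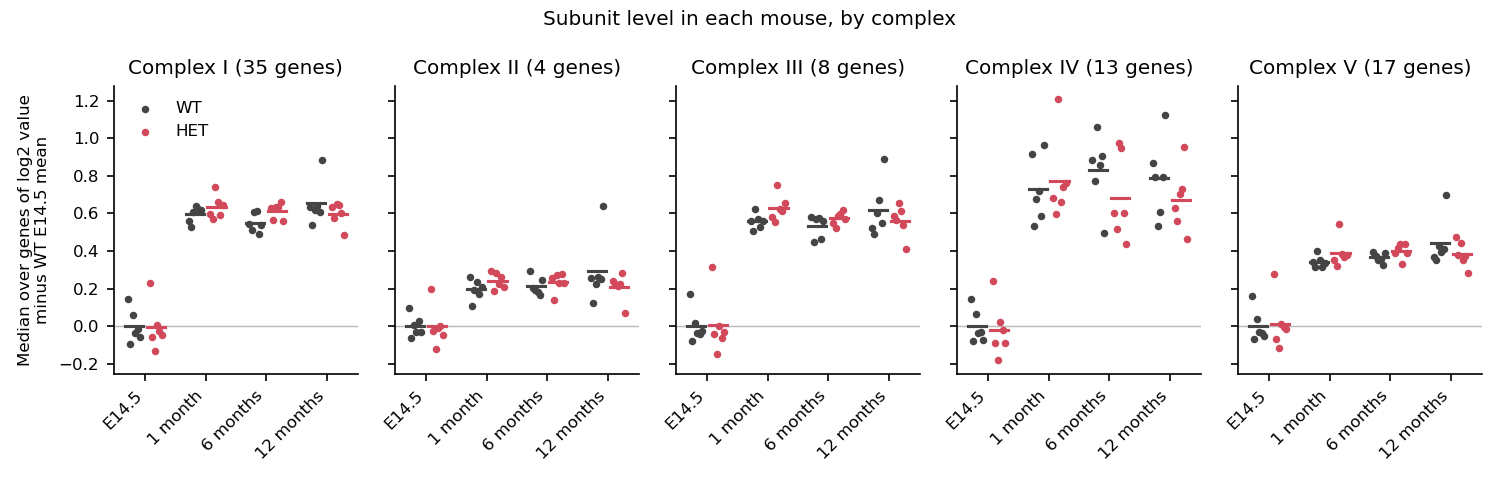
Each point is a mouse, and gives the median over the genes of a complex (77 genes above the filter in embryos) of the VST level minus that gene's mean in WT embryos (log2), with bars at the group means for WT (grey) and HET (red). The group means of all complexes are higher at the 3 postnatal ages than at E14.5, complex II least. At 1 month the points of complex IV spread the most (0.53 to 0.96 in WT). Taken gene by gene, the median deviation of complex IV genes from the group median lay between -0.14 and 0.02 in those WT mice. The spread of the points is therefore wider than the typical spread of its genes.

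The size of the rise depended on how samples were scaled. With quantile normalization between samples, the median over all genes moved from 0.03 to -0.09, and 58 of the 77 subunit genes rose and 6 fell in WT mice. Relative to the median of all genes, the WT medians were 0.60 as deposited and 0.69 with quantile normalization for complex IV, 0.56 and 0.65 for complex I, 0.52 and 0.56 for complex III, 0.30 and 0.32 for complex V, and 0.16 and 0.22 for complex II. The order of the complexes was the same under both scalings, although single members of complex V changed direction, as given below. With quantile normalization the WT rises of Ndufb11 (0.10), Ndufc2 (0.08), Sdhd (0.14), Uqcrfs1 (0.12), Cox7a1 (0.29) and Atp5g3 (0.13) no longer passed the test.

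Among complex I genes, most rose by a similar amount and a few did not. Ndufb9, an accessory subunit of the membrane arm, rose the most. Its level lay between 10.29 and 10.61 (median 10.40) in WT embryos and between 11.42 and 11.65 (median 11.55) at 1 month, without overlap, a change of 1.12 ± 0.07 (log2, SE, limma adjusted p = 7.8e-14). Ndufa5 (0.98) and Ndufs7 (0.93), which carries an iron-sulfur cluster near the ubiquinone site, followed. At the other end, 3 accessory subunits did not pass the test, with changes of -0.04 for Ndufb7, -0.01 for Ndufa7 and 0.01 for Ndufs4 and limma adjusted p of 0.54, 0.95 and 0.89. The 3 were named after their values were seen. No complex I gene fell in either genotype.

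The 4 genes of complex II moved in different directions. Sdha, the flavoprotein that oxidizes succinate, rose from between 11.90 and 12.16 (median 12.09) in WT embryos to between 13.12 and 13.28 (median 13.23), a change of 1.14 ± 0.05 (log2, SE, limma adjusted p = 4.1e-17). Sdhc, a membrane anchor, fell from between 11.14 and 11.28 (median 11.17) to between 10.86 and 11.02 (median 10.95), a change of -0.24 ± 0.05 (limma adjusted p = 0.00029). Neither gene's age groups overlapped. Sdhb, the iron-sulfur subunit, rose by 0.19 (limma adjusted p = 0.003) and Sdhd, the other anchor, by 0.20 (limma adjusted p = 0.014), the latter with overlapping groups. HET mice gave 1.17, -0.18, 0.23 and 0.22 for Sdha, Sdhc, Sdhb and Sdhd.

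In complex III each of the 8 genes rose. Uqcr11, a small accessory subunit, lay between 9.32 and 9.69 (median 9.48) in WT embryos and between 10.48 and 10.80 (median 10.69) at 1 month, a change of 1.17 ± 0.09 (log2, SE, limma adjusted p = 4e-12). Uqcrfs1, the Rieske iron-sulfur protein and a catalytic subunit, rose least, by 0.20 (limma adjusted p = 0.0013). The core proteins Uqcrc1 and Uqcrc2 rose by 0.59 and 0.39.

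Among genes above the filter in embryos, complex IV held the widest range of changes of the complexes, from -0.94 to 1.66 in WT mice. Cox6a2, which was admitted by its postnatal level, changed by 4.58. The ubiquitous subunits Cox8a, Cox6c, Cox6a1, Ndufa4 and Cox5b all rose by more than 1 on the log2 scale. Cox8a lay between 10.96 and 11.25 (median 11.07) in WT embryos and between 12.63 and 12.80 (median 12.75) at 1 month, and rose by 1.66 ± 0.07 in WT (log2, SE, limma adjusted p = 1.7e-18) and by 1.87 in HET mice. Cox6c rose by 1.40, Cox6a1 by 1.11, Ndufa4 by 1.10 and Cox5b by 1.06. Cox5a rose by only 0.20, and Cox7a2l did not pass the test (-0.10, limma adjusted p = 0.21).

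Complex V ranged from -0.77 to 1.2 on the log2 scale, and 14 of its 17 genes rose and 1 fell. Atp5a1 and Atp5b, which encode the α and β subunits of the catalytic head, rose by 0.28 (limma adjusted p = 1.1e-06) and 0.33 (limma adjusted p = 1.3e-06) in WT mice as deposited, but fell by 0.24 and 0.30, each past the threshold, with quantile normalization. Their direction therefore depends on the scaling, as does that of Atp5c1 (0.14 as deposited, -0.05 with quantile normalization) and Atp5f1 (0.13 and -0.09). Among the genes with an Atp5 name Atp5s rose the most, by 1.2 ± 0.07 (log2, SE, limma adjusted p = 1.4e-14), from between 6.91 and 7.23 (median 7.06) to between 8.05 and 8.33 (median 8.32) in WT mice. Atp5e and Atp5o, the ε subunit and the stalk protein OSCP, did not pass the test (-0.15 and -0.01, limma adjusted p = 0.18 and 0.87).

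**Figure D3:**
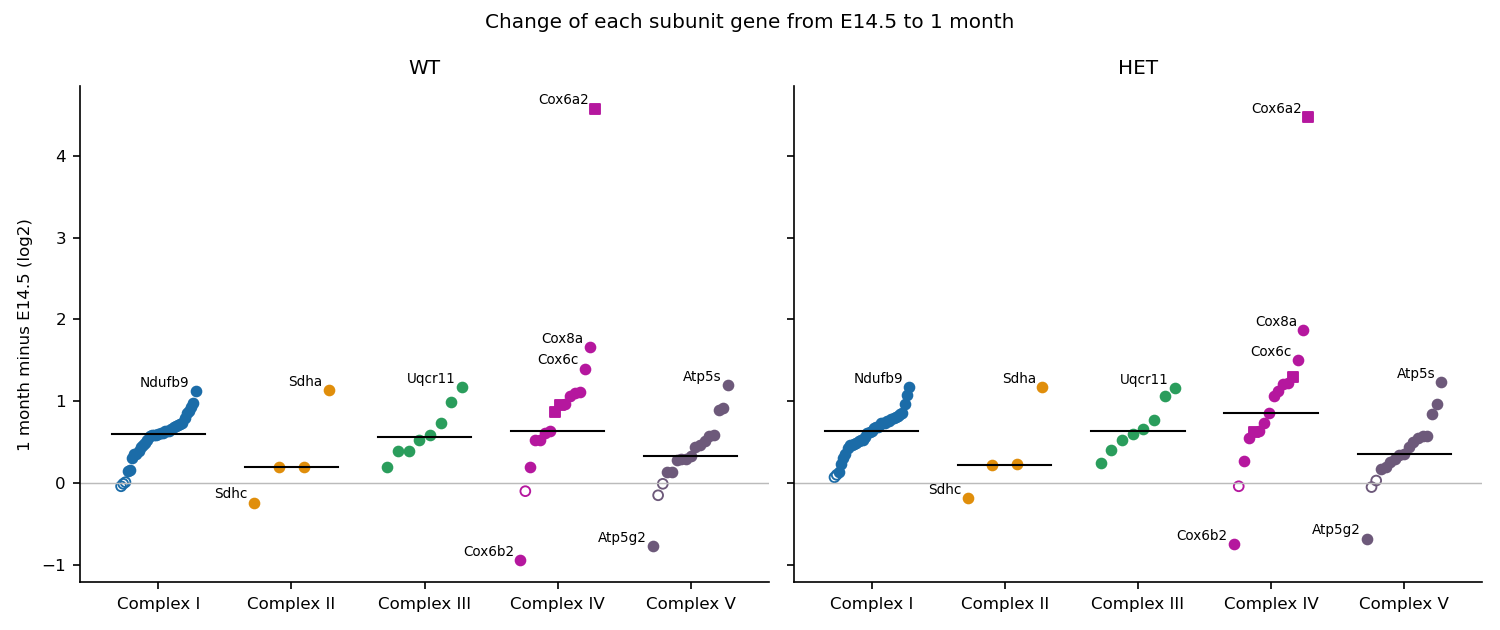
Each point is a subunit gene and gives its change from E14.5 to 1 month (1 month minus E14.5, log2) in WT (left) and HET mice (right). Squares mark the 3 genes below the filter in embryos, bars are medians of each complex without them, and filled symbols passed limma at an adjusted p below 0.1; Cox8a is the highest circle (1.66 in WT), and Cox6b2, Atp5g2 and Sdhc passed with values below 0.

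Several subunits come in isoforms encoded by different genes. The isoforms moved in opposite directions in the Cox6b and Atp5g sets and between Ndufa4 and Ndufa4l2. Cox7a1 and Cox7a2 both rose, as did Cox4i1 and Cox4i2. In the Cox6a, Cox7b and Cox8 sets, Cox6a2, Cox7b2 and Cox8b were admitted by their postnatal levels, and their changes are given without a p. Cox6a2, the isoform of heart and skeletal muscle, lay near the floor in WT embryos, between 2.09 and 2.73 (median 2.2), and between 6.82 and 7.04 (median 6.93) at 1 month, without overlap and with a difference of 4.58 ± 0.12 (log2, SE), for which no p is given since the gene was admitted by its postnatal level. It remained between 6.53 and 7.08 in WT mice at 6 and 12 months. The ubiquitous Cox6a1 rose as well, from between 11.06 and 11.46 (median 11.19) to between 12.13 and 12.39 (median 12.36). HET mice gave similar values for Cox6a2, between 2.09 and 2.75 in embryos and between 6.32 and 7.07 at 1 month.

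Cox6b1 and Cox6b2 moved in opposite directions. Cox6b2, an isoform best known from testis, fell from between 5.0 and 5.75 (median 5.46) in WT embryos to between 4.16 and 4.86 (median 4.38) at 1 month (-0.94 ± 0.18, log2, SE, limma adjusted p = 2.7e-05), whereas Cox6b1 rose from between 11.17 and 11.52 (median 11.22) to between 11.70 and 11.88 (median 11.83) (0.52 ± 0.07, limma adjusted p = 1.7e-07). Of the Cox7a genes, the ubiquitous Cox7a2 rose by 0.53 (limma adjusted p = 1.1e-07) and the muscle isoform Cox7a1, at a low level between 3.51 and 4.0 in WT embryos, by 0.61 (limma adjusted p = 0.0017). Cox7b rose by 0.97 (limma adjusted p = 7.6e-14). Its homologue Cox7b2 lay between 2.03 and 3.12 in WT embryos and between 3.23 and 3.91 at 1 month, and Cox8b, a muscle isoform, between 2.08 and 3.01 and between 2.08 and 3.6. Cox8c, the isoform of testis, was at the floor of 2.14 in every sample and was not tested.

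The c ring of ATP synthase is built from a peptide that Atp5g1, Atp5g2 and Atp5g3 all encode, the mature peptide being the same and only the import sequences differing. Atp5g1 rose from between 9.55 and 9.90 (median 9.73) in WT embryos to between 10.54 and 10.70 (median 10.61) at 1 month (0.89 ± 0.06, log2, SE, limma adjusted p = 2.3e-14). Atp5g2 fell from between 8.68 and 9.13 (median 8.87) to between 7.95 and 8.23 (median 8.11) (-0.77 ± 0.09, limma adjusted p = 2.4e-08). Atp5g3 changed least, from between 11.75 and 11.97 (median 11.81) to between 12.03 and 12.23 (median 12.12) (0.29 ± 0.07, limma adjusted p = 0.00029). WT embryos and 1-month WT mice did not overlap in any of the 3 genes, and HET mice gave changes of 0.85, -0.68 and 0.34. Among the subunit genes that the rule's pattern misses, Cox4i1, the ubiquitous form of the largest nuclear-encoded subunit of complex IV, rose by 1.02 (limma adjusted p = 1e-11) and Ndufa4l2, a hypoxia-induced relative of Ndufa4, fell by 0.77 (limma adjusted p = 4.1e-06). Cox4i2, the hypoxia-linked form of Cox4i1, rose by 0.37 at a low level (limma adjusted p = 0.013). Of the 9 genes of this kind in the table, 7 rose and 2 fell.

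**Figure D4:**
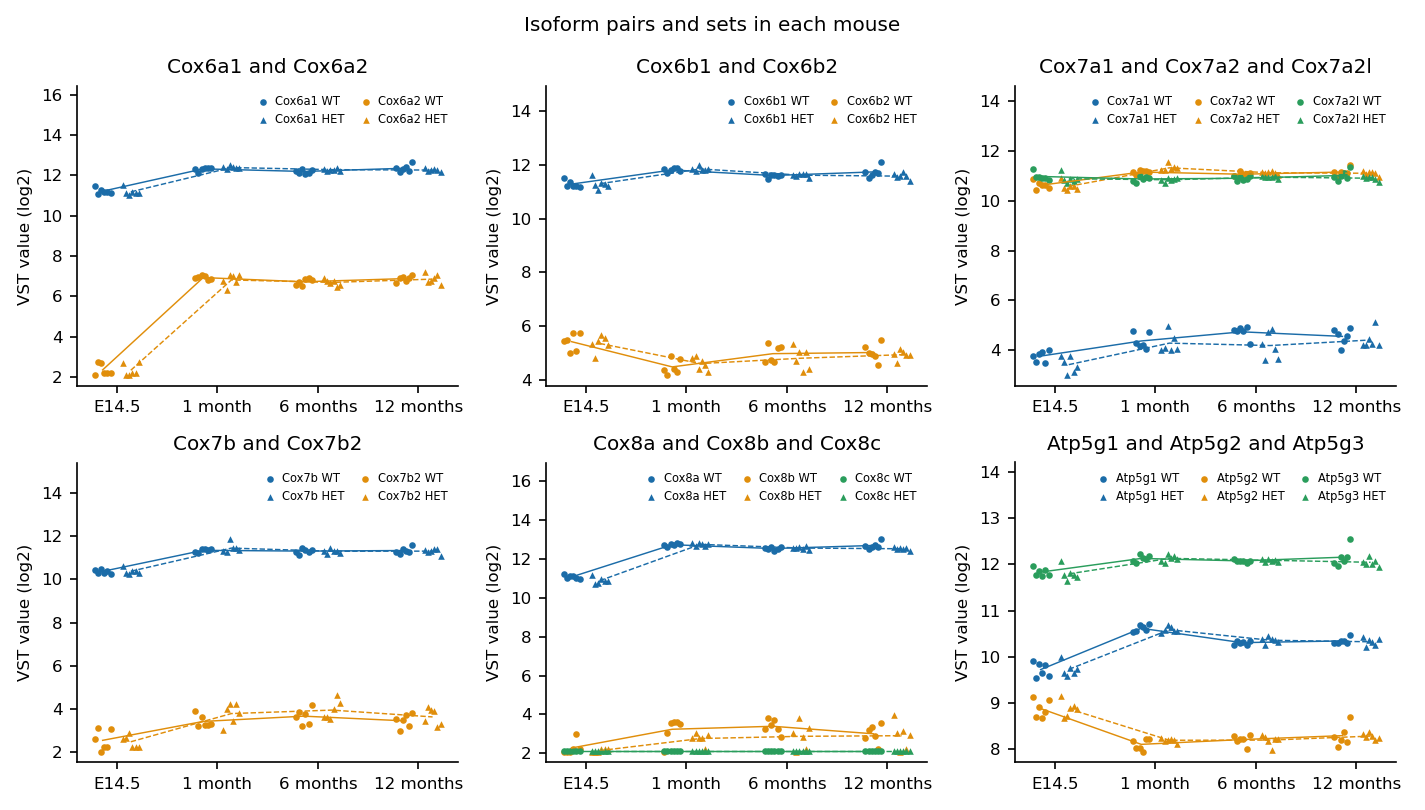
VST levels (log2) of 6 isoform sets at 4 ages, with a circle for each WT and a triangle for each HET mouse and lines through the group means. Cox6a2 goes from near the floor of 2.14 at E14.5 to about 6.93 at 1 month in WT, Cox6b2 and Atp5g2 are lower at 1 month than at E14.5, and Cox8c stays at the floor.

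Promoters of 69 of the 81 genes were present in a RefSeq table of 300-base windows (250 bases before to 50 after a start site, build GRCm38.p6), and were searched on both strands for sequences bound by factors known for control of respiratory genes. The NRF1 motif, the GC-rich site bound by that factor, was found for 17 genes (24.6%), against 5.19% of 27025 genes in the table and 9.41% of the 13165 that were above the filter in this cortex. The ETS sequence CCGGAAG, bound by GABPA, was found for 16 (23.2%), against 9.93% and 16.3%, and the YY1 sequence AAGATGGC for 11 (15.9%), against 3.19% and 4.40%. None of the 69 held all 3. In complex IV the NRF1 sequence was found for 1, ETS for 3 and YY1 for 0 of 14 genes, and in complex V for 6, 5 and 4 of 16. The levels of the factors themselves moved in different directions. From E14.5 to 1 month in WT mice Nrf1 fell by 1.62 (limma adjusted p = 8.4e-19) and Gabpa by 1.21 (limma adjusted p = 8.7e-16), whereas the coactivator Ppargc1a rose by 1.76 (limma adjusted p = 4.7e-14) and its partner Esrra by 1.15 (limma adjusted p = 5.3e-15), all on the log2 scale.

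The windows from 170 bases before to 30 after the start site are given below for 6 genes with contrasting changes, written along the gene's strand, with matches to any of the 3 sequences or their reverse complements in capitals. Cox8a (chr19:7217587-7217786) rose the most of the ubiquitous subunits, Cox6a1 (chr5:115348929-115349128) is the ubiquitous partner of Cox6a2, Sdha (chr13:74350211-74350410) stood apart within complex II, and Atp5g1 (chr11:96075602-96075801), Atp5g2 (chr15:102671018-102671217) and Atp5g3 (chr2:73911297-73911496) are the c-ring set, all on the minus strand of GRCm38.p6.
Cox8a: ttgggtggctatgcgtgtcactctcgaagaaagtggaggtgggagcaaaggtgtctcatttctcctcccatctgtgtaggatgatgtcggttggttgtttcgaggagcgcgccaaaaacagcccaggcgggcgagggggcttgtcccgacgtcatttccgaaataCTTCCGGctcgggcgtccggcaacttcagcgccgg
Cox6a1: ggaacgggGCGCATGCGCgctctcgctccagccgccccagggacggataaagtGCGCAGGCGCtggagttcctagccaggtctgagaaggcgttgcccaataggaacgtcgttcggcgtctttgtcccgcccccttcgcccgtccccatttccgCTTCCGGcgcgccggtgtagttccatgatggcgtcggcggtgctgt
Sdha: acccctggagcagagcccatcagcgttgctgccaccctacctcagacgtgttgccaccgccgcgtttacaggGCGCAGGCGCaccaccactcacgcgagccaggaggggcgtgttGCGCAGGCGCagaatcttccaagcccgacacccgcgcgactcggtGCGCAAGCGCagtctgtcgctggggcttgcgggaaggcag
Atp5g1: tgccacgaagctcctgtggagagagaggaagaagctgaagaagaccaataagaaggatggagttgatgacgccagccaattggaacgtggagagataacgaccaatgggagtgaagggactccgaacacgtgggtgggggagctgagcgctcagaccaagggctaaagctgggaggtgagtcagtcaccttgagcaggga
Atp5g2: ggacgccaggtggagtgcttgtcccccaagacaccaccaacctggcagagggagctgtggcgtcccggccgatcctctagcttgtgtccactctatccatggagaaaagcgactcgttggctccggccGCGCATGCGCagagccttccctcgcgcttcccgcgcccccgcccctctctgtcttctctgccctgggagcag
Atp5g3: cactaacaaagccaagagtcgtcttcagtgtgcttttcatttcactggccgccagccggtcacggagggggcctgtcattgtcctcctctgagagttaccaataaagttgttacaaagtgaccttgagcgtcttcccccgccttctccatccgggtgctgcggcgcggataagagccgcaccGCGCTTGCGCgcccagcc
The Cox8a window holds the ETS sequence, and that of Cox6a1 holds it together with NRF1 sequences. Sdha holds NRF1 sequences, as do Atp5g2, which fell, and Atp5g3. The Atp5g1 window holds none of the 3 sequences. Windows not printed also hold none for Ndufa4, Cox5b, Cox7b and Cox7c, which rose, and Cox6b2, which fell. Those of Uqcr11 (ETS) and, at 1 of 2 start sites, Ndufa5 (NRF1) hold a match, and both genes rose. In the wider windows searched, 38 of 69 subunit genes held any of the 3, but only 3 of 14 in complex IV (21.4%). Among genes above the filter 26.6% did. Whether the sequences go with the changes was not tested.

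From 1 to 6 months few subunit genes changed. In WT mice 3 of 80 rose and 9 fell, against a background of 14.8% (6.86% rose and 7.91% fell; limma, adjusted p below 0.1), so the share was near that of all genes. In HET mice 4 rose and 9 fell (16.2%), against a background of 21.8% (11.0% rose and 10.8% fell). Atp5g1 fell from between 10.54 and 10.70 (median 10.61) to between 10.26 and 10.35 (median 10.31) in WT mice, without overlap (-0.31 ± 0.06, log2, SE, limma adjusted p = 0.00052), and by 0.22 in HET mice (limma adjusted p = 0.0057). Uqcr11 fell by 0.32 in both genotypes (limma adjusted p = 0.024 and 0.00073). Both genes had risen from E14.5 to 1 month and stayed above their embryonic levels at 6 months.

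In the same interval all 6 oligodendrocyte markers fell in both genotypes (median -0.87 in WT and -1.03 in HET, log2), as did 4 and 6 of 7 red blood cell markers (median -0.62 in WT and -0.79 in HET) and 2 of 6 astrocyte markers in WT mice (median -0.20). Of 79 cytosolic ribosomal protein genes 15 rose and 2 fell in each genotype. The part of these in the values of the subunit genes was not tested.

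The other named changes of this interval were smaller, except for Cox6b2. Cox6b1 fell by 0.21 in WT and 0.23 in HET mice (limma adjusted p = 0.063 and 0.015), and Cox8a by 0.20 and 0.19 (limma adjusted p = 0.06 and 0.022). Ndufv1, the NADH-binding flavoprotein, rose by 0.16 and 0.15 (limma adjusted p = 0.04 and 0.02), and Sdha by 0.14 and 0.12 (limma adjusted p = 0.086 and 0.021). Ndufa13 fell by 0.20 in WT mice (limma adjusted p = 0.06) with a value of 0.07 in HET mice (limma adjusted p = 0.48), and the difference between the genotypes was not called. Cox6b2 rose by 0.49 in WT mice (limma adjusted p = 0.079). The WT count depended on the setting, and was 4 at an adjusted p below 0.05, 5 with quantile normalization and 21 when the 12 mice of these ages were fitted alone.

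From 6 to 12 months no subunit gene was called in either genotype, against a background of 0.0115% in WT and 1.88% in HET mice. At an unadjusted p below 0.05, 9 WT genes were higher and 0 lower (7.40% of all genes passed), and 0 HET genes passed (13.3%). In WT mice 74 of 80 genes had a change above 0 (46.8% of all genes did) with a median of 0.082 (log2), but without replicate 6 at 12 months the median was 0.017 and 59 of 80 were above 0. In HET mice the median was -0.012, with 30 of 80 above 0 (49.1% of all genes were), and 0.014 with 48 of 80 above 0 without replicate 6.

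Genotype differences in these genes were small at every age, and no subunit gene passed the test. Of the 16877 to 17288 genes tested, 0.00593% passed in embryos, then 0.139%, 0.0927% and 0.0463% at the 3 postnatal ages (limma, adjusted p below 0.1). At an unadjusted p below 0.05, 1 of 77 tested subunit genes passed in embryos, lower in HET mice (2.35% of all genes were lower and 2.21% higher by this rule). At 1 month 11 of 80 were higher and 1 was lower (3.73% and 5.07% of all genes). The 6-month values were 11 and 1 (3.54% and 4.05%), and at 12 months 0 were higher and 4 lower (6.18% and 5.39%). The median difference (HET minus WT, log2) was -0.009, 0.046, 0.029 and -0.052 in order of age, against medians over all genes between -0.003 and 0.005. Thus 65 of 80 subunit genes were above 0 in 1-month mice (48.6% of all genes were) and 9 of 80 in 12-month mice (51.4%). No subunit gene had groups that did not overlap in embryos (0.261% of all genes) or 6-month mice (0.527%).

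At 1 month the difference was above 0 at the median of each complex, at 0.050 for complex I, 0.014 for complex II, 0.063 for complex III, 0.061 for complex IV and 0.015 for complex V. The groups did not overlap in 2 genes, against 0.383% of all genes higher without overlap. Ndufs8, an iron-sulfur subunit of complex I, lay between 10.18 and 10.33 (median 10.29) in WT and between 10.37 and 10.56 (median 10.43) in HET mice, a difference of 0.16 ± 0.04 (log2, SE, limma adjusted p = 0.20). Cox7a2 lay between 11.03 and 11.21 (median 11.17) and between 11.21 and 11.54 (median 11.30), the highest being replicate 3, a difference of 0.17 ± 0.05 (limma adjusted p = 0.34). Neither passed the threshold. At this age no marker was called, but all 7 choroid plexus markers were above 0 (median 0.61), as were all 7 red blood cell markers (median 0.14) and 9 of 11 striatal markers (median 0.31), and 1 of 7 endothelial and mural markers was (median -0.21). Of the ribosomal protein genes, 77.2% of the cytosolic and 78.2% of the mitochondrial were above 0. The part of these in the values was not tested. Without HET replicate 3 the median over the subunit genes was 0.016, and it was 0.068 within replicates 1 to 3 and 0.022 within replicates 4 to 6. At 6 months it was 0.028 and 0.033 within these sets.

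At 12 months the direction was reversed, with medians of -0.041, -0.031, -0.066, -0.085 and -0.060 for complexes I to V. Of the cytosolic and mitochondrial ribosomal protein genes 21.5% and 16.7% were above 0 at this age. The direction rested on the libraries numbered 6. Without WT replicate 6 the median over the subunit genes was 0.004 with 41 of 80 above 0, without HET replicate 6 it was -0.030 with 29 above 0, and without both it was 0.014 with 50 above 0. Without WT replicate 2 it was -0.075 with 6 above 0. Within replicates 1 to 3 it was 0.035, and within replicates 4 to 6 it was -0.147. Atp5sl was the single gene whose groups did not overlap, against 0.497% of all genes lower without overlap, with levels between 9.62 and 9.75 (median 9.66) in WT and between 9.45 and 9.60 (median 9.58) in HET mice, a difference of -0.11 ± 0.05 (log2, SE, limma adjusted p = 0.42).

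In embryos the complex medians were between -0.032 and 0.003. Here the marker list for midbrain and hindbrain (20 genes) had mean VST levels between 3.26 and 6.88 in WT and between 3.21 and 4.41 in HET embryos, with 2 and 10 of the 20 genes below the filter, and its part in the values was not tested. Without WT replicate 1 the median over the subunit genes was 0.015 with 48 of 77 above 0, without HET replicate 1 it was -0.058 with 11 above 0, and without both it was -0.028 with 24 above 0. Without HET replicate 3 it was 0.014 with 45 above 0.

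The widest genotype differences belonged to genes of low level, whose mice also varied the most. Cox7a1 was the single gene lower in HET mice at an unadjusted p below 0.05 at 6 months, with levels between 4.25 and 4.95 (median 4.79) in WT and between 3.61 and 4.84 (median 4.15) in HET mice, overlapping groups and a difference of -0.55 ± 0.22 (log2, SE, limma adjusted p = 0.58). Its differences were -0.34 at E14.5, -0.09 at 1 month and -0.14 at 12 months, none past the threshold. Those of Cox8b were -0.48, -0.52 and -0.10 at the 3 postnatal ages, and those of Cox7b2 were 0.36, 0.28 and 0.18.

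**Figure D5:**
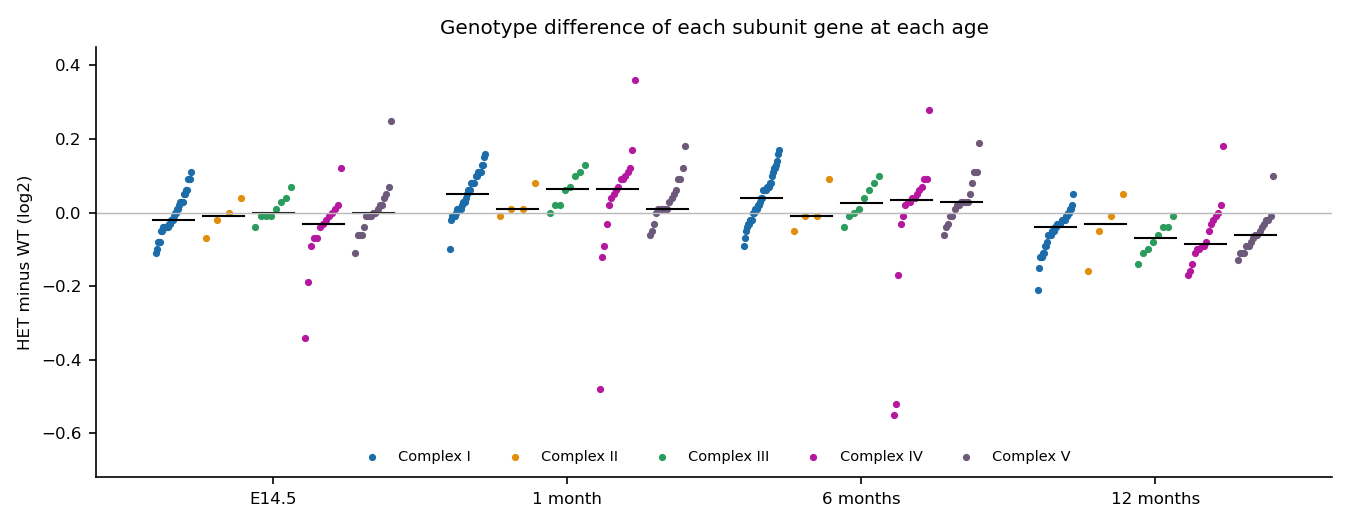
Each point is a subunit gene and gives its genotype difference (HET minus WT, log2) at an age, with complexes side by side in color and bars at their medians. No point passed the test, most points lie above 0 at 1 month (65 of 80) and below 0 at 12 months (71 of 80), and the gene farthest from 0 belongs to complex IV at the 3 younger ages.

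The genotype difference of no subunit gene was found to change with age in limma fits of all 48 samples, against backgrounds of 0.0635% for 12 months against E14.5, 0.00578% against 1 month and 0.0578% against 6 months. At an unadjusted p below 0.05, 0, 9 and 5 subunit genes passed in these 3 contrasts, each with a lower value at 12 months. Of all genes 11.5%, 11.1% and 8.68% passed in either direction, and 5.69%, 5.53% and 4.23% with a lower value. These counts include the 12-month libraries numbered 6, and counts without them are not given. For 1 month against E14.5 and 6 months against 1 month no gene at all was called (0.0%), and 3 and 1 subunit genes passed the unadjusted threshold (4.60% and 3.36% of all genes).

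Genes that work with the subunits differed in their course. From E14.5 to 1 month in WT mice, 16 of 17 citric acid cycle genes rose and none fell (median 0.57, log2), led by Idh3a (1.59), Dlat (1.25) and Sucla2 (1.37), and all 16 glycolysis genes rose (median 1.30), with Eno2, the enolase of neurons, at 4.63 and Aldoa at 2.85. Of 50 assembly factors of the complexes, 28 rose and 14 fell, among them Ttc19 of complex III (1.51) and Cox17, a copper chaperone for complex IV (1.40), while Oxa1l, an insertase of the inner membrane, fell by 0.54. Of 13 regulators 3 rose, namely Ppargc1a, Ppargc1b (2.94) and Esrra, and 8 fell, among them Gabpb1 (-1.50), Yy1 (-0.68) and Tfam (-0.54), which packages and transcribes mitochondrial DNA. Cytosolic ribosomal protein genes moved the other way, with 77 of 79 lower. Between genotypes, 1 assembly factor, Ecsit of complex I, and 1 regulator, Gabpa, were called, both higher in HET mice at 1 month (0.22 ± 0.04, limma adjusted p = 0.042, and 0.28 ± 0.05, limma adjusted p = 0.055, log2, SE). The Gabpa level lay between 9.48 and 9.74 in WT and between 9.79 and 9.99 in HET mice, without overlap. At 6 months its difference was 0.20 (limma adjusted p = 0.46) and at 12 months -0.03 (limma adjusted p = 0.86). The study, which used another test and corrected for batch effects, lists Lyrm7, an assembly factor, among genes that differed between genotypes at most ages. Lyrm7 was not among the assembly factors called here. The limma fits between genotypes called from 0.00593% (E14.5) to 0.139% (1 month) of all genes, so the lack of a call is weak evidence of no difference.

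Mice of a group differed little in the subunit genes. The median over genes of the within-group SD was 0.095 for the 80 subunit genes and 0.139 for all 17311 genes above the filter, but among genes with a mean VST level of 9 and over it was 0.089 for 70 subunit genes and 0.092 for 7861 genes, so the difference was small at matched levels. Atp5a1 (0.036) and Ndufv1 (0.046) were among the least variable. Cox8b (0.429), Cox7b2 (0.372) and Cox7a1 (0.327), all at low levels, varied the most.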

How the data were processed

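Cortical polyA RNA of 48 male mice was sequenced by the authors, who aligned reads with STAR 2.5.2b to mm9, quantified genes with Salmon 0.11.3 and deposited log2-scale variance-stabilized (VST) values from DESeq2 1.22.2, per the submitters' processing notes and the study's methods. The labels and the methods name different library kits. A difference between replicates 1 to 3 and 4 to 6 is already removed from the deposited log2 values, since the means of these sets are equal within 3.38e-14, and what they mark is not given in the sources used here. Replicates are separate mice. The counting depth behind a value is unknown, since no read counts of genes entered these fits, and precision comes from the 6 mice of a group.

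Genes whose mean lay at least 0.5 above the floor (2.1433) were fitted with limma 3.58.1 (R 4.3.3, trend, Benjamini-Hochberg over all genes, threshold 0.1), in 1 fit per age for genotype, 1 per genotype for age and 1 over all samples for genotype by age. Differences are on the VST scale and understate changes of low genes. VST values are not scaled by length, so levels were not compared between genes. Nuclear copies and pseudogenes of subunit genes could share reads. Summaries used Python 3.11.15 with numpy 2.4.6, pandas 2.3.3 and matplotlib 3.10.9, and the fits were tested on simulated data. Members, marker and pathway lists were chosen with earlier results of these data known. Genes were named by rule: the called or non-overlapping genes between genotypes, the called genes with the largest rise and fall per complex and age step, isoform sets, complex II, genes below the filter, the 3 most and least variable, genes called for genotype by age, Chd8 and regulators, and up to 3 called genes per list and direction. Other genes named were chosen after their values were seen. A gene that the rule on variability names is not reported here.

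Promoters came from RefSeq (GRCm38.p6) and matched 69 of 81 genes by symbol or alias. Transcript lengths came from an mm9 annotation and covered 85.2% of genes. Alternatives were another threshold, filter, trend setting and scaling, a block by replicate number, the 12 samples alone, sets of replicates and leaving out each mouse. Leaving out pairs of libraries, leaving out genes below the filter at E14.5, and the ribosomal protein and length classes, were chosen after seeing the data. Mitochondrially encoded genes were not analysed here.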

Additional observations from a re-analysis of the deposited data

Results flagged for a closer look

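In 41 of 280 groups of 6 mice, the gap between an extreme mouse and its nearest neighbour took up more of the group's range than Dixon's critical value for 6 samples allows, which chance alone gives in about 5% of groups. The groups share mice and the genes move together, so the flags are not independent.

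Most flags fell on a few libraries. WT 12-month replicate 6 stood apart in the medians of complex I (0.88, log2 above the mean of WT embryos), complex II (0.64) and complex V (0.70), and in the VST levels of Ndufb9 (11.93), Atp5g1 (10.48), Atp5g3 (12.55), Sdhd (11.28) and Chd8 (11.36). HET 12-month replicate 6 did so for complex II (0.07), Ndufs8 (10.10), Sdhd (10.55) and Chd8 (11.17). HET E14.5 replicate 1 did so for complexes III (0.31) and V (0.28) and for Cox7a2 (10.91), Sdha (11.89), Ndufv1 (11.26), Cox6a1 (11.51), Cox7a2l (11.22) and Chd8 (11.60). WT E14.5 replicate 1 did so for Sdha (11.90), Cox7a2l (11.26) and Sdhd (10.86). HET 1-month replicate 3 did so for complex V (0.54), Ndufb9 (11.92), Cox6b1 (12.01), Cox7b (11.87) and Ndufa4 (12.26).

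The other flags were spread over further mice. They were Atp5sl in HET 12-month replicate 3 (9.45), Sdhc in HET 1-month replicate 5 (10.88), Atp5s in WT 1-month replicate 3 (8.05) and HET 6-month replicate 5 (8.82), Ndufv1 in WT 6-month replicate 1 (11.80) and Cox6a1 in WT 1-month replicate 2 (12.13). Sdhd in WT 1-month replicate 2 (10.65) and Cox7a2l in HET 1-month replicate 2 (10.70) were also apart. Low genes gave Cox7a1 in WT 6-month replicate 6 (4.25) and HET 12-month replicate 5 (5.12), and Cox8b in WT E14.5 replicate 5 (3.01), WT 1-month replicate 1 (2.08) and HET 1-month replicate 5 (2.2).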

How the results depend on the processing

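No subunit gene was called between genotypes under any alternative run, including each of the 48 fits that left out a mouse. The count called from 1 to 6 months in WT mice was 12, and it was 4 at an adjusted p below 0.05, 5 with quantile normalization and 21 with only the 12 samples compared. Without the genes below the filter at E14.5, an alternative added after seeing the data, the WT rise of complex IV from E14.5 to 1 month was 0.637 in place of 0.92. With quantile normalization the WT rise from E14.5 to 1 month was 0.134 for complex II, 0.471 for complex III, 0.734 for complex IV and 0.231 for complex V, and the HET rise of complex V was 0.191. Under this scaling the changes of Atp5a1 (-0.24 in WT, -0.23 in HET), Atp5b (-0.30, -0.25), Atp5c1 (-0.05, -0.07) and Atp5f1 (-0.09, -0.04) reversed. The median genotype difference moved to 0.122 for complex III at 1 month within replicates 1 to 3 and to -0.15 for complex I at 12 months within replicates 4 to 6. The Chd8 difference lost its call at E14.5 with no filter (-0.63, adjusted p = 0.1), no trend (-0.63, adjusted p = 0.12) and within replicates 1 to 3 (-0.61, adjusted p = 1.0), and at 12 months within replicates 4 to 6 (-0.46, adjusted p = 0.55), all with limma. Leaving out a mouse gave Chd8 differences of -0.67 to -0.57 at E14.5, where 4 of 12 fits lost the call. For these changes the cause was not tested, except that fewer samples enter the within-set fits.

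Replicate numbers were not taken to pair the mice, since not every same-numbered pair correlated above 0.1 at any age. Same-numbered mice of the 2 genotypes had mean correlations of 0.2321, 0.0182, 0.0451 and -0.0342 from E14.5 to 12 months, with 4, 0, 1 and 0 of 6 pairs above 0.1. At E14.5 the mean of other pairs was -0.045, and 4 of 6 WT mice matched their own number best, a hint from the data and not from the design. With the replicate block 74, 12 and 0 subunit genes were called in the WT age steps, 75, 12 and 0 in HET and 0 between genotypes at every age.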
